A study of Mus musculus with 23 samples.

Results

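Cullins are the scaffolds of the largest family of ubiquitin ligases, and 10 genes of that machinery were followed here: the cullins Cul1, Cul2, Cul3, Cul4a, Cul4b, Cul5, Cul7 and Cul9, and the RING partners Rbx1 and Rnf7. The members were chosen by name, with earlier results of these data known. They are the rows of the gene count tables whose Ensembl identifier belongs to these symbols, 10 of the 56941 genes listed, of which 33025 had a count in any library. The RNA came from primary hippocampal neurons of newborn NEDD8cKO mice, homozygous for a Nedd8 allele with loxP sites around a part of the gene, at day 12 in culture. A lentivirus carried RFP alone (the RFP group, 11 libraries) or CRE with RFP (the CRE group, 12 libraries), both under the Synapsin1 promoter, which is active in neurons. Both groups therefore carried the floxed alleles and a virus. Cells in the dish in which that promoter is silent were not targeted. In a bulk culture, fewer cells of a type and less RNA per cell cannot be told apart.

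A cullin holds a substrate receptor at its N-terminal end and a small RING protein at its C-terminal end, and the RING protein brings in the ubiquitin-loaded enzyme. RBX1 is the RING partner of most cullins, and RNF7, also called RBX2, is the partner of CUL5. The ligase becomes active when the small modifier NEDD8 is attached to a lysine close to the RING-binding end of the cullin, so cullins are the best known targets of the Nedd8 product. In neurons, cullin ligases are known for roles in axon and dendrite growth and in the turnover of synaptic proteins.

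The attachment of NEDD8 is what ties the cullins to the deleted gene. The coding sequence around a candidate lysine is shown for that reason. A window of 30 coding bases around the lysine codon, which stands in capitals, was read 5′ to 3′ from GRCm39 at the annotated canonical transcript of 7 of the 8 cullins. The codon was located by a pattern in the translated sequence: a pair of hydrophobic residues, a basic residue or glutamine, a hydrophobic residue, methionine or leucine, and the lysine. Glutamine was allowed after Cul5 gave no match without it. Of the 2 matches in Cul3 the one nearer to the end was taken. A match marks a candidate only, and whether the codon receives NEDD8 was not tested for any of these genes.

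Cul1: gcggccatcgtgagaatcatgAAAatgagg

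Cul3: gctgctatagtgcgaataatgAAGtctagg

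Cul4a: gctgctatagtcagaataatgAAAatgagg

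Cul4b: gctgcgatcgttcgaattatgAAGatgaga

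Cul5: gaagccatcatacaaataatgAAAatgaga

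Cul7: tgccttgttgtccgaatcctcAAGgctcac

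Cul9: tgccttcttgtccggatcctcAAAgcccac

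The windows of Cul3, Cul4a, Cul4b and Cul5 shared 21, 25, 23 and 22 of 30 bases with the window of Cul1. The windows of Cul7 and Cul9 each shared 11 bases with Cul1 and 26 with each other. Over all pairs, the windows of Cul1, Cul3, Cul4a, Cul4b and Cul5 shared 18 to 25 bases, and any of them shared 9 to 15 with Cul7 or Cul9. The lysine codon was number 720 of 776 in Cul1 (chr6:47501451-47501480, plus strand, exon 21 of 22) and number 712 of 768 in Cul3 (chr1:80246960-80246989, minus strand, exon 15 of 16). In Cul4a it was number 705 of 759 (chr8:13194337-13194366, plus strand, exon 19 of 20), in Cul4b number 916 of 970 (chrX:37626062-37626091, minus strand, exon 22 of 23) and in Cul5 number 799 of 855 (chr9:53529281-53529310, minus strand, exon 19 of 19). In these 5 genes 54 to 56 codons followed it. In Cul7 it was number 1567 of 1689 (chr17:46974601-46974630, plus strand, exon 25 of 26), and in Cul9 number 1884 of 2530 (chr17:46821816-46821845, minus strand, exon 29 of 41), so that 122 and 646 codons followed. Cul9 encodes a further RING-type ligase domain behind its cullin part.

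Libraries are named by group and by the 2 numbers of their label, of which the first, 1 to 3, was read as the culture. The comparison used the 21 libraries that remain when CRE 1-3 and CRE 3-3, the libraries the study's Methods remove, are left out, with 10 CRE and 11 RFP libraries of 7635735 to 17112815 counts each. Read this way, libraries of a culture share a biological replicate, and the tests over 21 libraries count each library separately, so their intervals and p-values are narrower than 3 cultures allow. Values from counts summed per culture and condition (3 against 3) are given beside the members that passed. CRE 3-3 held 1546796 counts and CRE 1-3 held 7430401. CRE 1-3, CRE 3-3 and RFP 2-4 also stood apart in base composition: Spearman's rho between the GC content of a gene and its log2 level relative to the other libraries was 0.74, 0.56 and 0.51 over 14441 genes, against -0.13 to 0.28 in the other 20 libraries. The longest annotated transcripts of Cul7 and Cul9 hold 59.1% and 59.2% G and C, and those of the other 8 members 39.1% to 49.0%. In RFP 3-2, 24.2% of all counts lay in the ribosomal gene Rn18s-rs5, against 0.856% to 5.86% elsewhere. Nedd8 (chr14:55899715-55910069), the targeted gene, was at 44.1 to 76.0 CPM (counts scaled by library total and TMM factor) in the 11 RFP libraries and at 5.92 to 17.96 in the 10 CRE libraries, so the groups did not overlap. It fell by 2.41 on the log2 scale (SE 0.16, adjusted p = 1.79e-12, edgeR quasi-likelihood test). The antisense gene Gmpr2 covers 331 bases of its exons, and 11.7% of their 50-base stretches also occur in Gmpr2, so reads of Gmpr2 may be part of the level left in CRE and of the size of the fall, which was not tested. In CRE 1-3 it stood at 12.1 and in CRE 3-3 at 2.05 CPM, so every library matched its label.

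All 10 members passed the filter on low counts, with 161 to 2144 counts per library. At an adjusted p under 0.05, 2 of 10 members changed, both lower in CRE: Rbx1 and Cul9. Over all 14482 genes tested the share that changed was 37.9%, with 20.2% higher and 17.8% lower in CRE. The median log2 fold change of the 10 members was -0.02, beside 0.02 over all genes tested, and the median of its absolute value was 0.18, beside 0.31. Of all called genes 53.2% were higher in CRE, a share that became 68.3% when total counts replaced the TMM factors, a scaling that moved the median of all genes to 0.13. No member had groups that did not overlap in CPM, a pattern found in 5.67% of all genes tested.

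**Figure D1:**
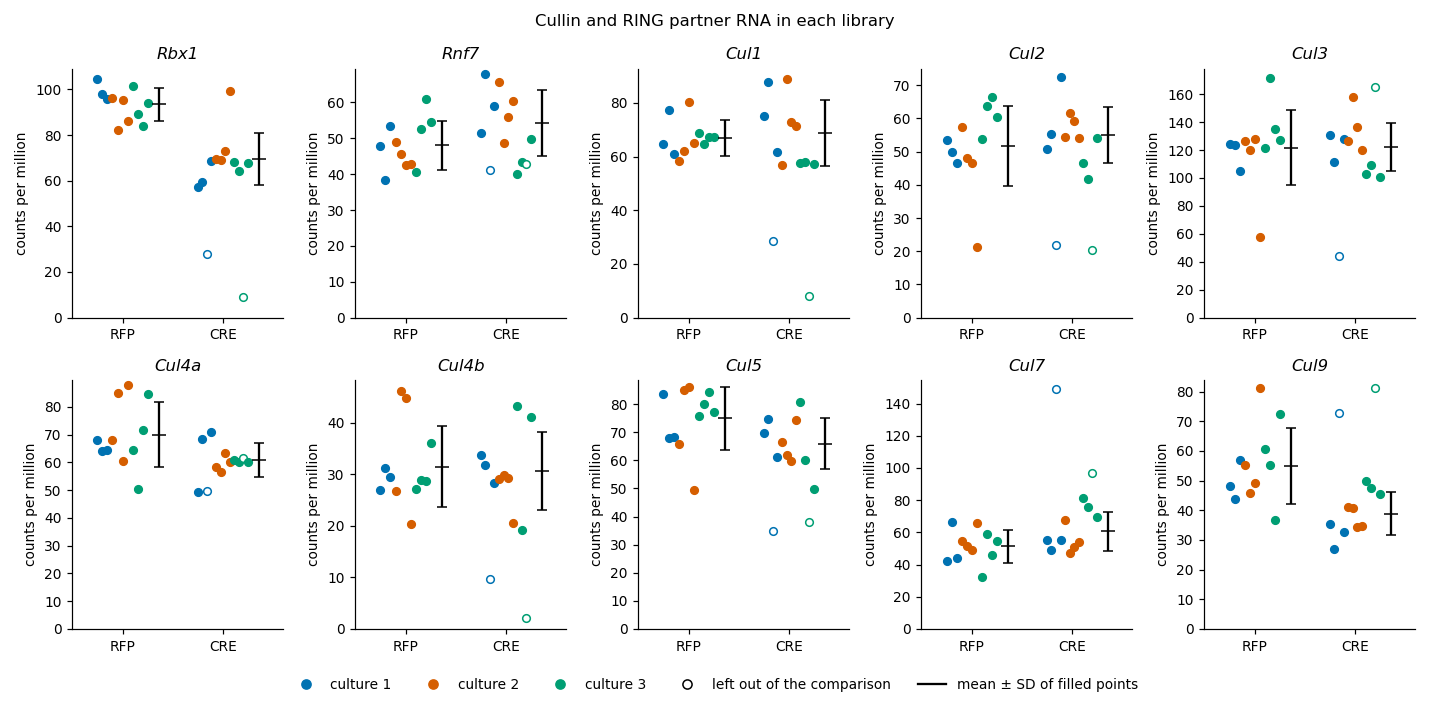
CPM (vertical axis, linear from 0) of the 10 members in each of the 23 libraries, RFP on the left and CRE on the right of each panel, coloured by culture number, with open circles for CRE 1-3 and CRE 3-3, which were left out of the comparison, and bars for the mean ± SD of the filled points. For Rbx1, 9 of the 10 filled CRE points lie under the lowest RFP point, and for Cul9 5 of 10 do.

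Rbx1 (ENSMUSG00000022400, chr15:81350467-81360571, plus strand) encodes the RING subunit shared by most cullin ligases. Its level ran from 82.3 CPM (RFP 2-2) through a median of 95.2 to 104 (RFP 1-1) in the RFP libraries and from 57.4 (CRE 1-1) through 68.3 to 99.1 (CRE 2-4) in the CRE libraries. In 9 of 10 CRE libraries it lay under the lowest RFP library, and CRE 2-4 was the exception. The mean was 93.4 ± 7.12 CPM in RFP (SD, n = 11) and 69.6 ± 11.4 in CRE (SD, n = 10). Rbx1 fell by 0.42 on the log2 scale (SE 0.08, 95% interval -0.60 to -0.25, adjusted p = 0.000184, edgeR), which means that its level fell by 25.5%. The RFP libraries varied least for this member, with a coefficient of variation of 7.62%, against 9.90% to 24.96% for the other 9. The call held under each of the 16 alternatives tried, with log2 fold changes of -0.60 to -0.32 and an adjusted p of at most 0.0258. With counts summed per culture and condition it was -0.50 (adjusted p = 0.00842, edgeR). In the libraries left out it stood lower still, at 27.9 CPM in CRE 1-3 and 8.87 in CRE 3-3, the latter from 13 counts. Both libraries carry the GC shift, and Cul1, which did not pass the threshold, was also low there (28.6 and 8.19 CPM). The part of base composition in these values was not tested. Of the 50-base stretches of the Rbx1 exons, 4.63% also occur in other annotated genes, a pseudogene among them.

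The RefSeq promoters of the members that fell are given because the data bear on their RNA, with 250 bases before and 50 after the transcription start (GRCm38.p6, a build other than that of the counts). Capitals mark the GC box GGGCGG, the core of Sp1 and KLF sites, on either strand.

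Rbx1: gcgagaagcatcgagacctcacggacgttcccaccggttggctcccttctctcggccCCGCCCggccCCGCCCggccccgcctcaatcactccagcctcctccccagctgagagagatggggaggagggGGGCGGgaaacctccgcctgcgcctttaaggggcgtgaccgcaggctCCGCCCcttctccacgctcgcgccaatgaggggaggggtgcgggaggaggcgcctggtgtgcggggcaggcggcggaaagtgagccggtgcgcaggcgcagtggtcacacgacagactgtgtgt

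Cul9: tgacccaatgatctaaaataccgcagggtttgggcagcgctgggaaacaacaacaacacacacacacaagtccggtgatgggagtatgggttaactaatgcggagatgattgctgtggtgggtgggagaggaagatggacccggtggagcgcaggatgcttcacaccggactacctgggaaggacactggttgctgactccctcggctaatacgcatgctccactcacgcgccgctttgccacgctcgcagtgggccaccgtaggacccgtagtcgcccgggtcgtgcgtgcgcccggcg

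The Rbx1 promoter (chr15:81466066-81466365, plus strand) holds 4 GC boxes and 29 CpG dinucleotides. The Cul9 promoter (chr17:46546339-46546638, minus strand) holds no GC box and 23 CpG dinucleotides. Among 32851 promoters of the same length, 35.7% hold a GC box and the median CpG number is 7. Each of the 2 promoters has 1 CCAAT box (letters CCAAT, either strand), which 37.4% of all promoters hold. Promoters were matched for 9 of 10 members, and of these Cul3, Cul4a, Cul5, Cul7 and Rnf7 also hold 1 to 3 GC boxes.

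Rnf7 (ENSMUSG00000051234, chr9:96352990-96360749, minus strand), the RING subunit that serves CUL5, did not fall with Rbx1. Its level was 38.3, 47.9 and 60.9 CPM at the lowest, median and highest RFP library and 40.0, 53.7 and 68.0 in the CRE libraries. The groups overlapped over most of their range, with 2 CRE libraries above the highest RFP library. The log2 fold change was 0.17 (SE 0.10, 95% interval -0.04 to 0.39, adjusted p = 0.19, edgeR), an interval that runs from -2.54% to 30.7% in percent. It was positive in all 16 alternatives and passed the threshold in 2, with total counts as scaling (0.28, adjusted p = 0.0336) and without culture 3 (0.30, adjusted p = 0.0312). Of the 50-base stretches of its exons 30.7% also occur elsewhere, in Emb (19.8%) and in the antisense gene Gm69110 (14.7%), which overlaps its exons over 289 bases. The strand setting and the handling of reads with several positions are not given in the sources used here, so the Rnf7 count is the least certain of the 10.

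A ratio of counts within a library does not depend on the scaling between libraries. The ratio of Rnf7 to Rbx1 ran from 0.391 through a median of 0.507 to 0.726 in RFP and from 0.586 through 0.751 to 1.15 in CRE. In 6 of 10 CRE libraries it exceeded every RFP library. Its log2 was higher in CRE by 0.60 (means -0.37 ± 0.30 and -0.97 ± 0.26, SD, p = 8e-05, adjusted p = 0.00018 over 3 ratios, two-sided permutation test with 100000 resamples). The balance between the counts of the 2 RING genes thus differed between the groups by more than the spread between libraries. It carries the uncertainty of the Rnf7 count, and the part of reads from Emb or Gm69110 in it was not tested. The difference in the log2 ratio was 0.42 to 0.78 when each culture was left out in turn, with exact permutation p-values adjusted over 3 ratios of 0.00175 to 0.0122. With counts summed per culture it was 0.61 and all 3 CRE cultures lay above all 3 RFP cultures, and the exact permutation p of 0.1 is the smallest that 3 against 3 allows.

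**Figure D2:**
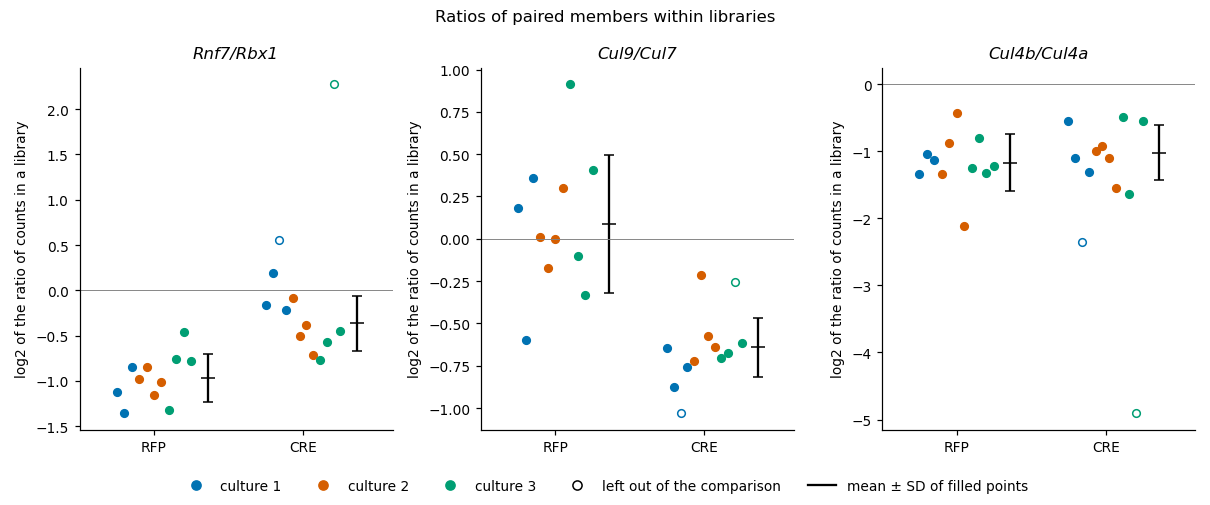
Log2 of the ratio of counts within each library for Rnf7 to Rbx1, Cul9 to Cul7 and Cul4b to Cul4a, with RFP and CRE side by side, colours for the culture number, open circles for the libraries left out and bars for the mean ± SD of the filled points. The CRE points of Rnf7 to Rbx1 lie 0.60 higher on average and those of Cul9 to Cul7 lie lower by 0.73, while the filled points of Cul4b to Cul4a overlap between the groups and both open circles lie under every RFP point.

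Cul9 (ENSMUSG00000040327, chr17:46811498-46857325, minus strand), also known as PARC, encodes a large cytoplasmic cullin studied for its binding of p53 and for roles in neuronal survival. Its level was 36.6 CPM at the lowest (RFP 3-3), 55.1 at the median and 81.2 at the highest RFP library (RFP 2-4), and 26.8 (CRE 1-2), 38.0 and 50.02 (CRE 3-1) in CRE. Each of the 10 CRE libraries was under the RFP median and 5 of them were under the lowest RFP library. Cul9 fell by 0.50 on the log2 scale (SE 0.13, 95% interval -0.76 to -0.24, adjusted p = 0.0025, edgeR), which means that its level fell by 29.3%. The call was lost over all 23 libraries (log2 fold change -0.29, adjusted p = 0.206), over the 21 libraries that keep CRE 1-3 in place of RFP 3-2 (-0.41, adjusted p = 0.0541) and without culture 2 (-0.43, adjusted p = 0.0673). It held without RFP 2-4 (-0.43, adjusted p = 0.00523) with the GC trend of each library removed (-0.36, adjusted p = 0.0131) and with counts summed per culture and condition (-0.51, adjusted p = 0.0255). In the libraries left out, which carry the GC shift, Cul9 stood at 72.9 CPM (CRE 1-3) and at 81.2 (CRE 3-3).

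Cul7 (ENSMUSG00000038545, chr17:46961255-46975290, plus strand) is the nearest relative of Cul9 in the windows above and encodes the scaffold that works with the F-box protein FBXW8. It was at 32.2, 51.6 and 66.3 CPM (lowest, median, highest) in RFP and at 47.2, 55.1 and 81.5 in CRE. In CRE 4 libraries exceeded the highest RFP library, among them all 3 of culture 3. The log2 fold change was 0.24 (SE 0.12, 95% interval -0.01 to 0.48, adjusted p = 0.126, edgeR). Whether it passed the threshold depended on the libraries and the processing: it did over all 23 libraries (0.46, adjusted p = 0.0466), with the GC trend removed (0.37, adjusted p = 0.00446) and with total counts as scaling (0.35, adjusted p = 0.031), while without culture 3 the value was -0.03 (adjusted p = 0.865).

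The ratio of Cul9 to Cul7, genes of like GC content, ran from 0.661 through 1.01 to 1.88 in RFP and from 0.546 through 0.633 to 0.863 in CRE. In 8 of 10 CRE libraries it was under every RFP library. Its log2 was lower in CRE by 0.73 (mean -0.64 ± 0.17 in CRE and 0.09 ± 0.41 in RFP, SD, p = 0.00012, adjusted p = 0.00018 over 3 ratios, two-sided permutation test). This difference passed the threshold with each set of libraries, and it stayed between -0.83 and -0.64 when a culture was left out. It was adjusted over 3 ratios and the call for Cul9 alone over all genes tested, so their adjusted p-values are not alike. Per culture the sums gave -0.73, with exact permutation p = 0.1, the smallest the design allows (adjusted p = 0.15). There the ratio did not pass, while Cul9 alone did (-0.51, adjusted p = 0.0255, edgeR).

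None of the 6 scaffolds of the classical ligases, Cul1 to Cul5, passed the threshold over the 21 libraries, beside 37.9% of all genes tested that did. Cul4a and Cul5 passed it in 2 of 16 alternatives each. Cul1 (ENSMUSG00000029686, chr6:47430293-47510320), the scaffold of the SCF ligases with F-box receptors, was at 58.3, 65.1 and 80.3 CPM in RFP and at 57.0, 66.7 and 88.8 in CRE. The CRE libraries spread more widely on both sides, with 4 under and 2 over the RFP range. Its log2 fold change of 0.04 (95% interval -0.15 to 0.23, adjusted p = 0.788, edgeR) turned negative in 5 of 16 alternatives, down to -0.14. Cul2 (ENSMUSG00000024231, chr18:3381417-3436428), the scaffold of the VHL ligase, was at 21.3, 53.4 and 66.5 CPM in RFP and at 41.8, 54.3 and 72.4 in CRE. Its change was 0.09 (95% interval -0.18 to 0.36, adjusted p = 0.619, edgeR), and it turned negative in 2 alternatives. The lowest RFP value, in RFP 2-4, lay under every CRE library in the comparison.

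Cul3 (ENSMUSG00000004364, chr1:80242639-80318537), the scaffold for BTB-domain receptors, had the highest CPM of the 10 members. It was at 57.5, 125 and 172 CPM in RFP and at 101, 123.3 and 158 in CRE. The group means were 122 CPM in both, and the log2 fold change of 0.01 (95% interval -0.23 to 0.25, adjusted p = 0.967, edgeR) was of either sign across alternatives, from -0.19 to 0.16. In percent, the interval runs from -14.8% to 18.7%.

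Cul4a (ENSMUSG00000031446, chr8:13155619-13197950) and Cul4b (ENSMUSG00000031095, chrX:37620412-37665081) encode close relatives that both bind the adaptor DDB1. Cul4a was at 50.3, 68.1 and 87.8 CPM in RFP and at 49.1, 60.1 and 70.8 in CRE, with 8 of 10 CRE libraries under the RFP median. Its log2 fold change was -0.20 (SE 0.09, 95% interval -0.39 to -0.01, adjusted p = 0.0874, edgeR). It kept its sign in all 16 alternatives and passed the threshold in 2 of them, both of which leave out RFP 3-2 (-0.29 with adjusted p = 0.0281 and -0.23 with adjusted p = 0.0394). Cul4b was at 20.3, 28.9 and 46.1 CPM in RFP and at 19.2, 29.7 and 43.3 in CRE. Its change was -0.04 (95% interval -0.34 to 0.26, adjusted p = 0.858, edgeR) and turned positive in 2 alternatives, total counts among them. The ratio of Cul4b to Cul4a had medians of 0.427 in RFP and 0.483 in CRE and a difference of 0.15 on the log2 scale (means -1.17 ± 0.42 and -1.02 ± 0.41, SD, p = 0.428, two-sided permutation test), less than the spread between libraries.

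Cul5 (ENSMUSG00000032030, chr9:53525882-53581314), the scaffold of the SOCS-box ligases and the partner of RNF7, was at 49.5, 77.3 and 86.1 CPM in RFP and at 49.9, 64.4 and 80.7 in CRE. All but 1 of the 10 CRE libraries were under the RFP median. The log2 fold change was -0.18 (SE 0.10, 95% interval -0.38 to 0.02, adjusted p = 0.142, edgeR). It passed the threshold without RFP 2-4, the lowest RFP library (-0.23, adjusted p = 0.0343), and when RFP 3-2 was left out as well (-0.25, adjusted p = 0.0297). It was negative in all 16 alternatives.

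**Figure D3:**
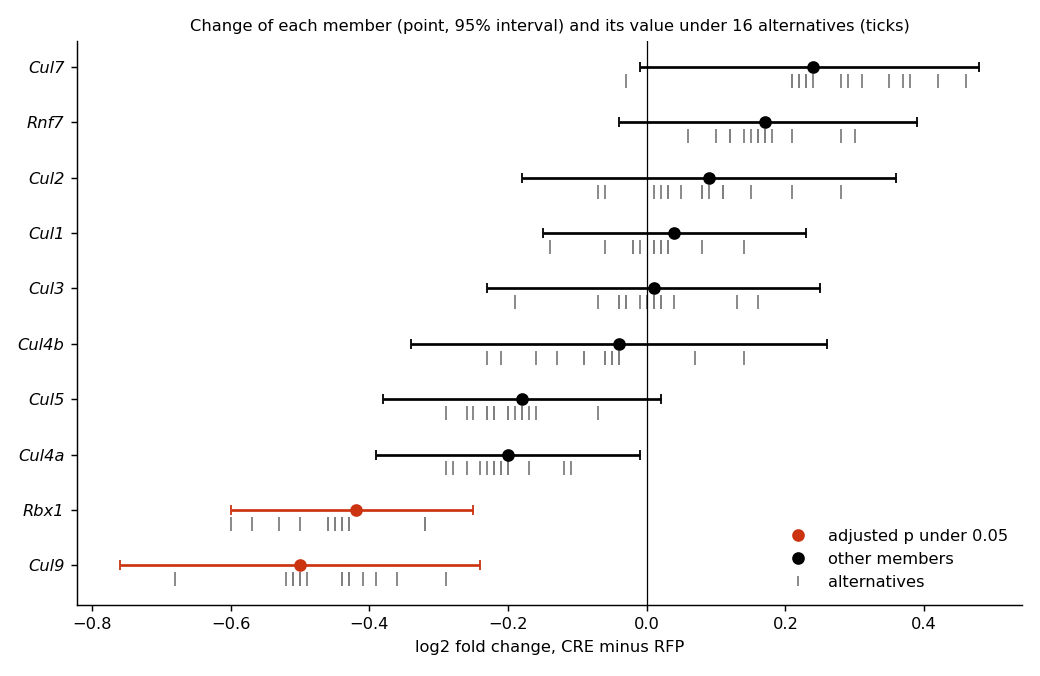
Log2 fold change of CRE minus RFP (horizontal axis) for the 10 members, with points and 95% intervals from the 21 libraries, red where the adjusted p is under 0.05, and grey ticks under each point for the values under 16 alternatives. All ticks of Rbx1, Cul9, Cul4a and Cul5 lie left of 0 and all ticks of Rnf7 lie right of it, while Cul1, Cul2, Cul3, Cul4b and Cul7 have ticks on both sides.

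Levels of different genes can be set beside each other only per length. Divided by the length of the canonical transcript, Rbx1 came first in RFP with 54.7 ± 4.17 CPM per kb (SD, n = 11), followed by Rnf7 with 38.3 ± 5.48. The cullins followed in the order Cul3 (24.1 ± 5.32 CPM per kb), Cul1 (19.2 ± 1.90), Cul4a (18.7 ± 3.10), Cul2 (13.3 ± 3.11), Cul5 (12.3 ± 1.84), Cul7 (9.30 ± 1.85), Cul9 (6.995 ± 1.64) and Cul4b (6.29 ± 1.57). Within libraries Rbx1 exceeded Rnf7 and Rnf7 exceeded Cul3 in 11 of 11. The neighbours Cul1 and Cul4a, Cul2 and Cul5, and Cul9 and Cul4b kept their order in only 7 of 11 libraries each and did not differ beyond their spread.

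In CRE the order changed at the top, where Rnf7 reached 43.3 ± 7.37 and Rbx1 40.8 ± 6.68 CPM per kb (SD, n = 10), with Rnf7 higher in 5 of 10 libraries. It also changed at the bottom, where Cul9 came last with 4.94 ± 0.93, under Cul4b in 8 of 10 libraries. Rnf7 made up 41.1% ± 4.42 of the per-length RING level in RFP and 51.4% ± 5.16 in CRE. Cul3 held the largest share of the per-length cullin level, 21.7% ± 3.85 in RFP and 22.6% ± 2.48 in CRE. The 8 cullins summed to 110.2 ± 8.31 CPM per kb in RFP and 107 ± 5.34 in CRE, and the 2 RING genes to 93.1 ± 5.56 and 84.0 ± 10.8. The order depends on the length used. With all annotated exons (4736 bases for Rbx1, 1395 for Rnf7, 12236 for Cul1), Rnf7 came first in both groups, with 34.4 ± 4.92 CPM per kb in RFP, Cul3 second with 21.9 ± 4.82 and then Rbx1 with 19.7 ± 1.503, and Cul1 stood ninth with 5.48 ± 0.54.

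The change was then taken within each culture number, with 3, 4 and 3 CRE and 3, 4 and 4 RFP libraries in cultures 1, 2 and 3. This sets CRE and RFP libraries of the same number beside each other, which the comparison over 21 libraries did not do. Rbx1 was lower in each, by log2 fold changes of -0.69, -0.21 and -0.47, and so was Cul9, by -0.65, -0.62 and -0.24. Cul4a (-0.06, -0.34, -0.17) and Cul5 (-0.09, -0.12, -0.32) also kept their sign, and the other 6 members did not. In culture 3, Cul1, Cul2, Cul3 and Rnf7 had values of -0.22, -0.36, -0.41 and -0.24, opposite to the values in cultures 1 and 2, which were 0.15 and 0.13 for Cul1, 0.25 and 0.40 for Cul2, 0.07 and 0.32 for Cul3 and 0.35 and 0.36 for Rnf7. Cul7 was at 0.06, -0.01 and 0.66. None of the 10 members passed the test of the interaction between condition and culture number (edgeR, adjusted p from 0.414 to 0.916), a test that 0.311% of all genes passed. At an unadjusted p under 0.05 it named 4 members, Rnf7, Cul3, Cul7 and Cul2, beside 9.92% of all genes. A difference between cultures was thus not shown for any member.

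**Figure D4:**
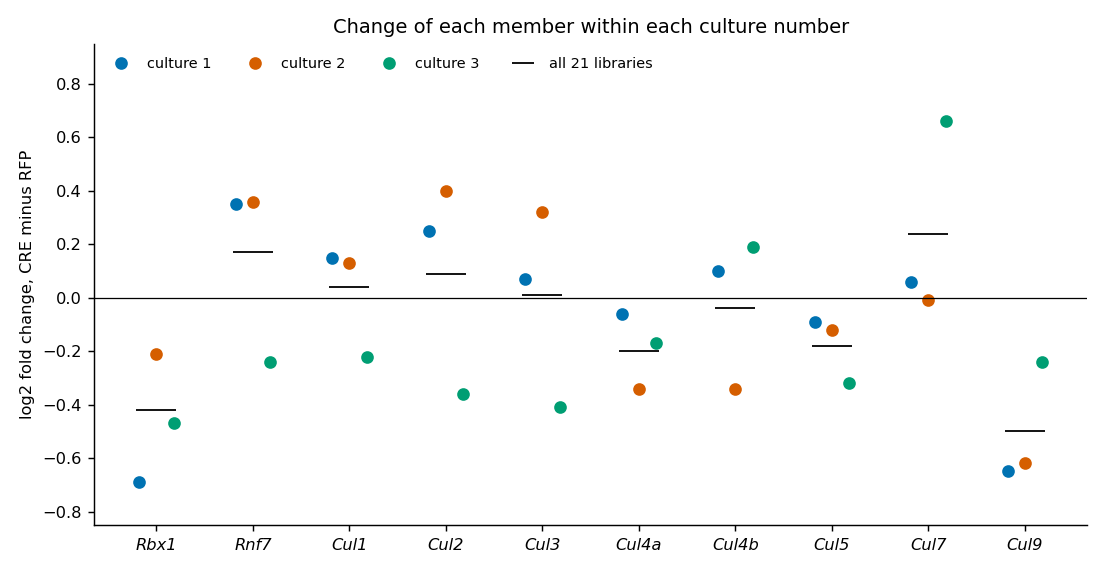
Log2 fold change of CRE minus RFP (vertical axis) for each member within cultures 1, 2 and 3 (coloured points), with a black line for the value over all 21 libraries. Rbx1, Cul9, Cul4a and Cul5 have all 3 points under 0, and Cul7 has its points at 0.06, -0.01 and 0.66.

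The genes whose log2 CPM moved most like that of Rbx1 over the 21 libraries were Gpr27, Dennd11 and Cnksr2, each with Pearson's r = 0.89. They fell by 1.05, 0.40 and 1.30 on the log2 scale (edgeR, adjusted p = 6.18e-09, 0.000185 and 1.88e-10). For Cul9 they were Dock3 (r = 0.84), Wbp2 and Neurl4 (r = 0.83 each), which fell by 0.28, 0.27 and 0.46 (edgeR, adjusted p = 0.0335, 0.00228 and 2.38e-05). These coefficients are taken over libraries of both groups and contain the difference between them.

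The genes that work with cullins were read from lists, of which 60 of 61 genes were tested. The test called 22 of them, 36.7%, with 10 higher and 12 lower, beside the 37.9% of all genes, with a median log2 fold change of 0.04. Nedd8 itself is among the 12. Of the 22 called genes 12 kept the call over all 23 libraries. The call held under all 16 alternatives for Nedd8, Dcun1d4, Fbxw7, Vhl and Spsb1, and no called gene changed sign in any alternative.

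Beside a share of 37.9% over all genes tested, 3 of the 10 genes for NEDD8 and its attachment changed. Beside Nedd8 these were Dcun1d4 and Dcun1d3, genes of the DCN1-like proteins that help to load NEDD8 onto cullins. Dcun1d4 was at 141 ± 18.7 CPM in RFP (SD, n = 11) and at 96.3 ± 11.1 in CRE (SD, n = 10) and fell by 0.55 (adjusted p = 7.47e-06, edgeR). Dcun1d3 rose by 0.32 (adjusted p = 0.0269, edgeR), a call lost over all 23 libraries (0.17, adjusted p = 0.603). The conjugating enzymes that pair with the RING partners, Ube2m with RBX1 and Ube2f with RNF7, had log2 fold changes of -0.21 (adjusted p = 0.0887) and 0.12 (adjusted p = 0.462).

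Of the factors that remove NEDD8, 2 of 11 changed, beside 37.9% of all genes tested. The 2 were subunits of the COP9 signalosome: Gps1 fell by 0.29 (adjusted p = 0.00926, edgeR) and Cops9 by 0.33 (adjusted p = 0.0312, edgeR). Both calls were lost over all 23 libraries (adjusted p = 0.0825 and 0.108) and with total counts as scaling (adjusted p = 0.163 and 0.175). The catalytic subunit Cops5 was at -0.05 (adjusted p = 0.734). Of 3 genes for cullin exchange and inhibition 1 changed, beside the same 37.9%. Cand2 rose by 0.41 (adjusted p = 0.0326, edgeR), a call that held in 10 of 16 alternatives. Cand1, which swaps the receptors of unmodified cullins, was at 0.11 (adjusted p = 0.206, edgeR). Glmn, whose product binds RBX1, was at -0.05 (adjusted p = 0.928, edgeR).

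Of 8 genes for enzymes that pass ubiquitin on to substrates of cullin ligases, 4 were higher in CRE and 0 lower, beside 20.2% and 17.8% of all genes. The list was chosen with earlier results known and was not tested as a group. The called genes were Arih2, which rose by 0.41 (adjusted p = 0.00133, edgeR), Cdc34 by 0.34 (adjusted p = 0.0292), Arih1 by 0.27 (adjusted p = 0.0111) and Ube2r2 by 0.25 (adjusted p = 0.0138). Arih2 and Arih1 encode RBR-type ligases that act together with NEDD8-carrying cullins, and Cdc34 and Ube2r2 encode E2 enzymes of SCF ligases. The values of the other 4, Ube2d1, Ube2d2a, Ube2d3 and Ube2g1, lay between -0.04 and 0.17. The call for Arih1 was lost over all 23 libraries (0.21, adjusted p = 0.177, edgeR). Of the 16 alternatives, the call held in 15 for Arih2, 12 for Ube2r2, 11 for Arih1 and 10 for Cdc34.

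Among 4 adaptors 1 changed, beside 37.9% of all genes tested. Ddb1, the adaptor of CUL4 ligases, rose from 231 ± 23.1 to 285 ± 22.6 CPM (SD, log2 fold change 0.31, adjusted p = 0.000733, edgeR). Its call was lost over all 23 libraries (0.23, adjusted p = 0.123, edgeR). Skp1, Elob and Eloc were at -0.05, -0.12 and -0.24 and did not pass. None of 3 partners of CUL7 passed, with Fbxw8 at 0.10, Obsl1 at -0.16 and Ccdc8 at 0.41. In the anaphase-promoting complex, which is built around relatives of a cullin and of RBX1, the RING gene Anapc11 fell by 0.46 (adjusted p = 0.00522, edgeR), while the cullin-like Anapc2 was at 0.03 (adjusted p = 0.875). The Anapc11 call was lost over all 23 libraries (-0.18, adjusted p = 0.529).

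Of 19 substrate receptors tested, 3 were higher and 7 lower, beside 20.2% and 17.8% of all genes. The list was chosen with earlier results known and the count was not tested against other genes. For CUL1, Fbxw7 fell by 0.51 (adjusted p = 2.8e-05, edgeR), while Btrc, Fbxw11 and Skp2 had values of 0.05 to 0.13. For CUL2, Vhl fell by 0.53 (adjusted p = 6.55e-06, edgeR). Its level was 69.3 to 118 CPM in RFP and 54.997 to 68.3 CPM in CRE. The groups thus did not overlap, a pattern found in 5.67% of all genes tested. Zyg11b fell by 0.20 (adjusted p = 0.0404), Fem1b was at -0.12, and Lrr1 was too low to be tested. For CUL3, Kctd13 fell by 1.01 (adjusted p = 8.87e-07) and Spop by 0.24 (adjusted p = 0.0112), and Keap1, the receptor that holds NRF2 in check, was at -0.17 (adjusted p = 0.179). For CUL4, Dtl, the receptor for the licensing factor CDT1, fell by 0.84 (adjusted p = 0.00183) and Dcaf1 rose by 0.36 (adjusted p = 0.0152). For CUL5, Spsb1 rose by 1.46 (adjusted p = 3.32e-10), from 8.15 to 12.1 CPM in RFP to 22.4 to 36.2 CPM in CRE, Socs6 rose by 0.37 (adjusted p = 0.029), and Socs2 fell by 0.78 (adjusted p = 0.00568). Over all 23 libraries the calls of Kctd13 (-0.54, adjusted p = 0.109), Dcaf1 (0.28, adjusted p = 0.129), Socs6 (0.30, adjusted p = 0.138) and Zyg11b (-0.39, adjusted p = 0.141) were lost.

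**Figure D5:**
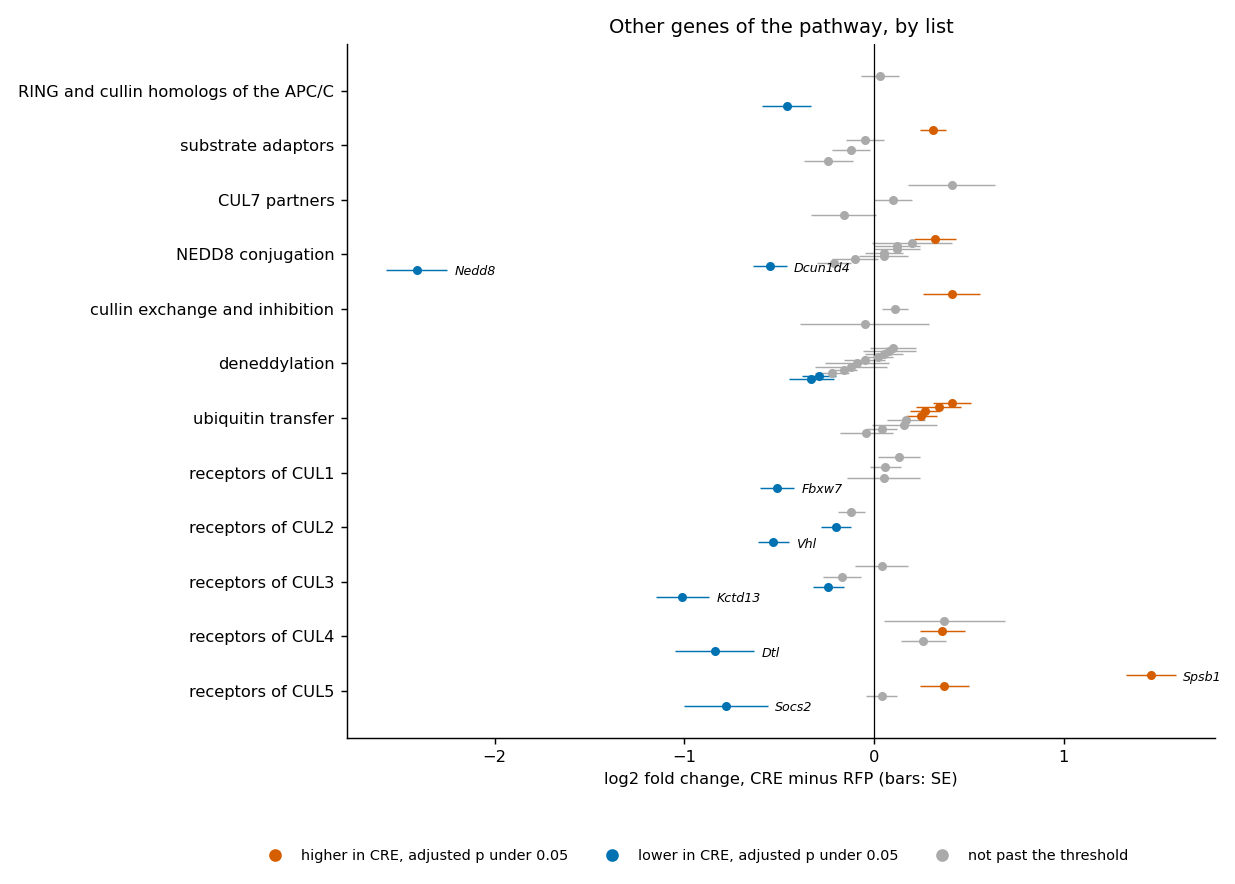
Log2 fold change of CRE minus RFP (horizontal axis, bars for the SE) for 60 genes that work with cullins, in rows by list, orange where higher and blue where lower in CRE at an adjusted p under 0.05, and grey otherwise. Nedd8 at -2.41, Kctd13 at -1.01 and Spsb1 at 1.46 lie farthest from 0.

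Markers of several cell types differed between the groups as well, not all in 1 direction within a list. Over all genes tested 17.8% were lower and 20.2% higher in CRE, and the marker counts were not tested against these shares. Of 8 neuron markers 5 were lower and 1, Nefm, higher in CRE, and their summed level was 5254 to 6983 CPM in RFP and 3253 to 5800 in CRE. All 7 markers of dividing cells were lower, with sums of 141 to 302 CPM in RFP and 28.5 to 182 in CRE. Of 8 markers of the oligodendrocyte lineage 5 were lower (584 to 1867 CPM against 425 to 1009). Of 8 astrocyte markers 4 were lower and 1, Gja1, higher (3037 to 7845 against 1559 to 5126). Of 7 mesenchymal markers 1, Pdgfrb, was higher (15.4 to 143 against 14.3 to 380.0). Microglia and endothelial markers summed to at most 7.70 and 9.67 CPM in any library of the comparison, and Cx3cr1, C1qa, Itgam, Trem2, Cldn5 and Tek had a median count of 0. Among the 3 genes tested, Tmem119 was higher and Kdr lower in CRE, and Csf1r did not pass (-0.97, adjusted p = 0.207, edgeR). Tmem119 had a median count of only 3 and was not tested over all 23 libraries. Over all 23 libraries the calls of Olig1 (0.28, adjusted p = 0.521), Olig2 (-0.61, adjusted p = 0.124), Aldh1l1 (-0.49, adjusted p = 0.12), Aldoc (-0.59, adjusted p = 0.089) and Birc5 (-0.93, adjusted p = 0.0695) were lost, with the opposite sign for Olig1. The part of these marker differences in the changes of Rbx1, Cul9 and the other genes was not tested.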

How the data were processed

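Gene counts of 23 libraries (12 CRE, 11 RFP) were used. The authors prepared stranded mRNA libraries, sequenced them on a NovaSeq6000, aligned reads with STAR 2.7.8a to GRCm39 (Ensembl release 110) and deposited featureCounts (1.5.0-p1) counts without normalization, as whole numbers; bcl2fastq 2.20.0.422 is also named in the submitters' processing notes. The strand setting and the treatment of reads with several positions are not given in the sources used here. Groups came from the sample labels. The study's legend counts 3 biological replicates (animals or biological replicates) behind these libraries, so libraries share a replicate, and the tests over 21 libraries treat them as independent: their p-values and intervals measure the spread between libraries and are too small for a statement about replicates. Which libraries share one is not stated in words, and the first number of the label was read as the replicate. No 2 libraries of a group agreed within sampling noise (chi-square per gene at least 11.0).

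Of 56941 genes, 56323 were named from GENCODE M39 on GRCm39. edgeR 4.0.16 (R 4.3.3) was run with filterByExpr, TMM factors and robust glmQLFit and glmQLFTest on 10 CRE and 11 RFP libraries, without CRE 1-3 and CRE 3-3, which the Methods remove. The threshold was a Benjamini-Hochberg adjusted p of 0.05 over all genes tested. Intervals are at 95%. Log2 CPM for likeness of patterns used a pseudocount of 0.5. Ratios of counts were compared by permutation with scipy 1.17.1. Totals were 7635735 to 17112815 counts in the comparison. Alternatives were other sets of libraries, DESeq2 1.42.0, limma 3.58.1 voom, other scaling, no filter on low counts, replicate blocks, sums per culture, cultures left out and removal of the GC trend (loess span 0.4). The edgeR, DESeq2 and voom steps were tested on simulated data. The members and lists were chosen with earlier results of these data known. Named genes are all members, the leading or called genes of each list and, for members past the threshold, the 3 genes with the highest Pearson's r. No genome coordinates were converted between builds.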

Additional observations from a re-analysis of the deposited data

Results flagged for a closer look

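Rbx1 in CRE 2-4 stood at 99.1 CPM, the highest of the 10 CRE libraries, and its gap to the next library took up 0.628 of the range of the group, above the critical value of 0.466 for 10 samples. The same library was not apart in depth or in base composition, with 10842807 counts and a Spearman's rho with GC content of 0.10.

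The ratio of Cul9 to Cul7 in CRE 2-2 was 0.863, the highest of the 10 CRE libraries, with a gap of 0.604 of the range. It came from 536 counts of Cul9 and 621 of Cul7. In all 14 sets of CRE values were examined this way and 2 were singled out, where chance alone gives about 1 in 20.

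Cul7 stood at 149 CPM in CRE 1-3 and at 96.9 CPM in CRE 3-3, the libraries left out of the comparison, above the 66.3 CPM of the highest RFP library. These libraries had 7430401 and 1546796 counts, rho values with GC content of 0.74 and 0.56, and 0.261% and 1.83% of counts in mitochondrial genes, against 6.997% to 11.1% in the 20 libraries without RFP 2-4. The part of base composition and depth in these Cul7 values was not tested.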

How the results depend on the processing

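The number of members past the threshold, 2, became 4 both without CRE 1-3, CRE 3-3, RFP 2-4 and RFP 3-2 (Cul4a, Cul5, Cul9, Rbx1) and with total counts without TMM (Cul7, Cul9, Rbx1, Rnf7), and was 1 to 3 when each culture was left out (1 without culture 2, and 3, with Rnf7 at 0.30 and adjusted p = 0.0312, without culture 3). The number of pathway genes, 22, became 12 over all 23 libraries, 10 with counts summed per culture and condition, and 10 to 16 with a culture left out. Nedd8 stayed between -2.65 and -2.25. Ratios were run with other sets of libraries, with cultures left out, permuted within culture and with sums per culture. The ratio of Rnf7 to Rbx1 and that of Cul9 to Cul7 passed the threshold in all of these except the sums per culture. The sums gave 0.61 and -0.73 (adjusted p = 0.15 each, permutation test), a design whose smallest p is 0.1. The GC trend was not removed for the ratios, and Rnf7 and Rbx1 differ in GC content (47.7% and 42.5%). The ratio of Cul4b to Cul4a turned to -0.29 over all 23 libraries (adjusted p = 0.57). Values near 0 changed sign: Cul1 to -0.06 in the 21 libraries of the supplementary count table, -0.14 over all 23 and -0.02 with sums per culture, and -0.02 to 0.08 with a culture left out; Cul2 to -0.06 over all 23 and -0.07 to 0.28 with a culture left out; Cul3 to -0.04 in those 21 libraries, -0.03 over all 23, -0.07 without RFP 2-4, -0.03 without RFP 2-4 and RFP 3-2, -0.0036 with DESeq2, -0.0035 with RLE scaling and -0.04 with sums per culture, and -0.19 to 0.16 with a culture left out; Cul4b to 0.07 with total counts and -0.21 to 0.14 with a culture left out; Cul7 -0.03 to 0.38 with a culture left out. No member passed the interaction test in any alternative. The cause of these changes was not tested.

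Over all genes, the 5492 calls became 4049 over all 23 libraries, 5502 without RFP 2-4, 5582 without RFP 2-4 and RFP 3-2, 3727, 3804 and 5304 without culture 1, 2 and 3, and 8044 of 32911 genes without a filter on low counts. The CRE and RFP libraries of the same culture number deviated together with correlations of 0.11, 0.19 and 0.07 over 14482 genes. In the comparison the numbers were not taken to pair them, although each CRE culture correlated best with the RFP culture of its own number. The changes within a culture number do set them beside each other. With the culture number as a replicate block, 2 members (Cul9 and Rbx1) passed, 5657 genes were called over all, and the ratios of Rnf7 to Rbx1, Cul4b to Cul4a and Cul9 to Cul7 differed by 0.60, 0.15 and -0.73 (permuted within culture, adjusted p = 0.000465, 0.448 and 0.00021). With culture and library number as the block, 4778 genes were called and 2 members passed. Depth limits the smallest values: in CRE 3-3 Cul4b rests on 3 counts, Cul1 on 12 and Rbx1 on 13.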

Other observations

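The libraries left out of the comparison showed several members at levels far from the rest. Both libraries carry the shift in base composition, and its part in these levels was not tested. In CRE 1-3 the level of Cul1 was 28.6, of Cul2 21.8, of Cul3 43.9, of Cul4b 9.67 and of Cul5 34.9 CPM, each under the lowest RFP library except Cul2. In CRE 3-3 Cul3 stood at 165 CPM, within the RFP range, while Cul1 was at 8.19, Cul2 at 20.5 and Cul4b at 2.05 CPM. Rnf7 was at 41.1 and 43.0 CPM in these libraries, within the RFP range, so that the ratio of Rnf7 to Rbx1 reached 1.47 and 4.85. Cul4a, at 49.6 and 61.4 CPM, was under the lowest RFP library in CRE 1-3 and within the RFP range in CRE 3-3.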
